A study of Homo sapiens with 4 samples.

Results

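Small nucleolar RNAs (snoRNAs) and small Cajal body RNAs (scaRNAs) were examined in RNA-seq data from NT2 (NTERA-2), an embryonal carcinoma line of human origin. Members were the genes whose symbol begins with SNORA, SNORD or SCARNA and a number, and whose mean level over the 4 libraries was at least 0.5 CPM (a gene's count divided by the library total and multiplied by 1e6). Of 62696 genes in the count tables, 553 carried such a symbol and 59 of them met the minimum. These 59 comprised 19 of 314 box C/D genes (SNORD), 32 of 214 box H/ACA genes (SNORA) and 8 of 25 scaRNA genes. The series held 1 library of NT2 cells with an empty vector and 3 libraries of NT2 cells labelled as HYDIN2 knockdown, replicates 1 to 3. All 4 were total RNA depleted of ribosomal RNA. The labels give no construct, clone, time point or further treatment, and do not say that the replicates were separate cultures, so spreads and p-values measure only the variation between these libraries.

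Most snoRNAs are cut out of introns of host genes and stay in the nucleolus. Box C/D snoRNAs carry a C box and a D box, bind fibrillarin and guide 2′-O-methylation of ribosomal RNA. Box H/ACA snoRNAs carry an H box between their hairpins and an ACA box near the 3′ end, bind dyskerin and guide pseudouridylation. A few of both kinds act in cleavage of the ribosomal RNA precursor instead. The scaRNAs are related guides that gather in Cajal bodies and direct modification of the spliceosomal small nuclear RNAs.

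The library labels were checked first. HYDIN2 was counted at 0.50 CPM with the empty vector and at 2.41, 1.88 and 0.352 CPM in the libraries labelled knockdown replicates 1, 2 and 3, from 12, 150, 112 and 11 counts. It was not lower than in the empty vector library in the libraries labelled replicates 1 and 2. The count columns are also headed as a LacZ control and GKAP_KIF27 sets, not by the sample labels. For these reasons the 3 are called labelled knockdown libraries throughout. Library totals ran from 25181737 to 62904698 counts, and 3 counts, the floor used for an undetected gene, came to between 0.0482 and 0.125 CPM. All 10 pluripotency markers examined were detected, among them LIN28A at between 1912 and 3620 CPM. The immune marker PTPRC had counts of 0, 0, 6 and 0, and the fibroblast marker DCN counts of 0, 0, 2 and 0, in the empty vector library and labelled knockdown replicates 1, 2 and 3. Other markers of those lists were present: the 5 fibroblast markers summed to 466, 549, 547 and 341 CPM in that order, mostly THY1, and the 5 neuron markers to 43.4, 70.2, 68.4 and 59.8 CPM. The empty vector library was lowest for 3 of the 5 neuron markers and highest for 1. MAP2, of the former, was 2-fold higher in each labelled knockdown library, at 9.17 CPM against 24.0, 22.8 and 34.5 CPM. RBFOX3, the latter, was lower in each, at 17.7 CPM against 12.3, 12.8 and 6.59 CPM. Of the 10 pluripotency markers, the empty vector library was highest for 5 and lowest for 2. DNMT3B alone was 2-fold lower in each labelled knockdown library, at 795 CPM against 340, 350 and 349 CPM. The part of these markers in the results below was not tested. The first 2 labelled knockdown libraries resembled each other more than the third: only 1.30% of the 18605 genes at the same minimum differed 2-fold between replicates 1 and 2. Of these genes, 9.20% were at least 2-fold higher and 13.6% at least 2-fold lower in the library labelled replicate 3 than in both others.

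Sequences of some of the members on which the results turn are shown here, from the GENCODE 29 transcripts on GRCh38, 5′ to 3′ on the strand of the gene. In the box C/D members, capitals mark the C box letters TGATGA near the start and the D box letters CTGA near the end. SNORD67 (chr11:46762389-46762499, minus strand) is 1 of the members that were at least 2-fold lower in each labelled knockdown library. SNORD14E (chr11:123058077-123058161, minus strand) and SNORD69 (chr3:52692736-52692812, plus strand) are short members that stood high in the library labelled replicate 3.
SNORD67: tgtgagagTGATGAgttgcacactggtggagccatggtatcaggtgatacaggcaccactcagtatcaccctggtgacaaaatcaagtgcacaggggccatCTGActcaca
SNORD14E: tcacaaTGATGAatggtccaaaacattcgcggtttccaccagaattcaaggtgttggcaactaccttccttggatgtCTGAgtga
SNORD69: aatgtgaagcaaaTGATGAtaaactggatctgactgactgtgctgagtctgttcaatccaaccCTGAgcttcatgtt

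In the box H/ACA members and in SCARNA1, capitals mark the match to the H box pattern ANANNA nearest the middle and the last ACA near the 3′ end. SNORA73B (chr1:28508559-28508762, plus strand) was the most abundant member, and SNORA53 (chr12:98599635-98599883, plus strand) had the lowest mean difference from the empty vector library. SNORA22 (chr7:65755526-65755659, plus strand) and SNORA22C (chr7:65065999-65066132, plus strand) are near-identical copies, shown together because their counts cannot be fully separated. SCARNA1 (chr1:27834401-27834566, plus strand) was the scaRNA member that was at least 2-fold lower in each labelled knockdown library. SCARNA5 (chr2:233275727-233276002, plus strand) was the most abundant scaRNA, and its capitals mark its C and D box letters.
SNORA73B: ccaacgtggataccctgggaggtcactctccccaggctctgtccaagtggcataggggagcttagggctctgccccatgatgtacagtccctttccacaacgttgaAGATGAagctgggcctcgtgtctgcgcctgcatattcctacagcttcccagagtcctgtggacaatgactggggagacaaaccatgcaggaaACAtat
SNORA53: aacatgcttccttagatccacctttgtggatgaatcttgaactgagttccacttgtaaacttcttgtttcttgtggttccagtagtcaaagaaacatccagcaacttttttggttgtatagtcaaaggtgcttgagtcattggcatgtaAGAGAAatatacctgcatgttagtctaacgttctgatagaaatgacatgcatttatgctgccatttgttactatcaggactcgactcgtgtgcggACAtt
SNORA22: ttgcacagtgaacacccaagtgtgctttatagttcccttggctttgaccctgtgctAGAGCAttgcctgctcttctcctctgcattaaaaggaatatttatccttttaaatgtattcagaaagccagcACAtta
SNORA22C: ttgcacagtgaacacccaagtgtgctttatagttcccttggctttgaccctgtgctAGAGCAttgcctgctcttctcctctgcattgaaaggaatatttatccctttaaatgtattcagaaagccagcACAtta
SCARNA1: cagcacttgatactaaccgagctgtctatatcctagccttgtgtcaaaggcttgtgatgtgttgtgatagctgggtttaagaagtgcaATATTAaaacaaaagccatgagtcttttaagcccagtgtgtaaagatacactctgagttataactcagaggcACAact
SCARNA5: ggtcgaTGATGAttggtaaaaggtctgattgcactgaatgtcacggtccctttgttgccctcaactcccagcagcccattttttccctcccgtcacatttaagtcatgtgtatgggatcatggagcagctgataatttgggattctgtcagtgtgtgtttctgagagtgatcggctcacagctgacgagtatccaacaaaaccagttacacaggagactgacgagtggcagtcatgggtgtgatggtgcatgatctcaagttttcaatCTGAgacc

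The names of the classes were checked against these letters, which the choice of members did not use. Both TGATGA starting in the first 15 bases and CTGA starting in the last 15 bases were found in 13 of 19 box C/D members (68.4%), in 0 of 32 box H/ACA members and in 0.127% of 18133 other transcripts of 60 to 360 nt. An ACA starting in the last 8 bases, with an ANANNA match at least 45 bases from either end, was found in 29 of 32 box H/ACA members (90.6%), in 0 of 19 box C/D members and in 7.31% of the other transcripts. The scaRNA members were mixed. SCARNA5, SCARNA6 and SCARNA7 held the C and D letters, SCARNA1, SCARNA3, SCARNA18 and SCARNA21 held the H and ACA letters, and SCARNA9 held neither pair. Only the transcript strand was searched, and the ANANNA pattern is loose and can overlap other letters, so a match describes the sequence and is not a mapped site. Of the 59 members, all had a transcript sequence and 55 had the same symbol in GENCODE 29.

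The gene's surroundings in the annotation went together with whether any count was recorded. Of the 553 genes, 357 were listed at 0 in all 4 libraries, namely 228 of 314 box C/D, 118 of 214 box H/ACA and 11 of 25 scaRNA genes. All 141 genes that lie wholly inside an exon of another gene on the same strand were listed at 0, against 189 of 371 genes that touch no such exon (50.9%) and 27 of 40 that lie partly over one (67.5%). The 141 were 84 box C/D, 52 box H/ACA and 5 scaRNA genes. Counting tools commonly leave out a read that falls in more than 1 gene. Whether the deposited counts were made that way is not given in the sources used here and was not tested, and the authors' annotation release may differ from GENCODE 29.

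Several of the best known small RNAs were among those listed at 0. SNORD118 (U8, needed for maturation of the large subunit RNAs) lies inside an exon of TMEM107. SNORA73A, the sister of SNORA73B, lies inside an exon of SNHG3, SNORD22 inside SNHG1 and SNORD14B inside RPS13. SCARNA2 and SCARNA17 also lie inside exons of annotated genes. SCARNA13 was listed at 0 as well, although it touches no exon on its strand. SCARNA10 had counts of 1, 2, 8 and 0. For these genes a 0 cannot be read as absence of the RNA.

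**Figure D1:**
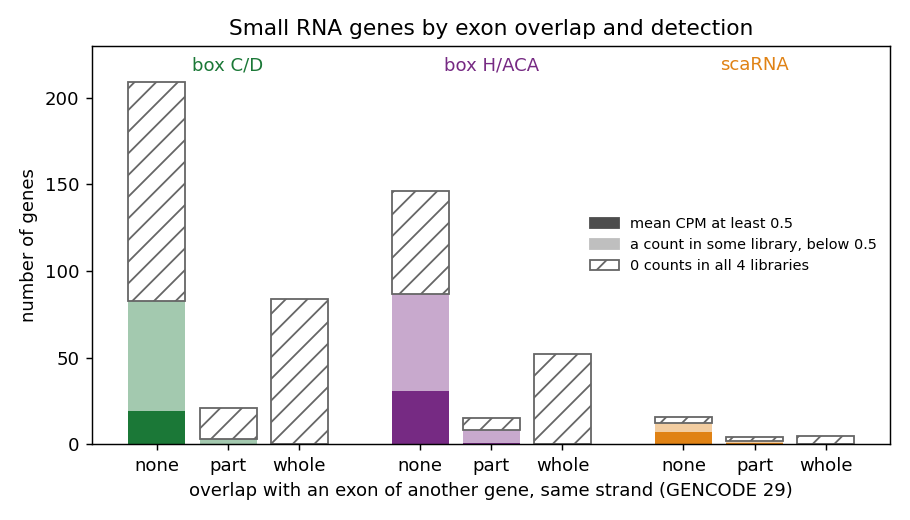
Small RNA genes by class and by overlap with an exon of another gene on the same strand in GENCODE 29; bars give the number of genes on a linear axis from 0, split into members, other genes with a count and genes listed at 0 in all 4 libraries. The 1 gene with no match in that annotation is not drawn. Every one of the 141 genes wholly inside such an exon was listed at 0.

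The large imprinted tandem clusters had nearly no counts. The 9 SNORD113 and 30 SNORD114 genes had no count in any library. SNORD115 had a count in 4 of 50 genes. SNORD116, the cluster of the Prader-Willi region, had a count in 5 of 33 genes, and 1 of them, SNORD116-17, was a member. SNORD116-17 was at 1.5 CPM with the empty vector and at 0.482, 0.235 and 1.15 CPM in labelled knockdown replicates 1, 2 and 3. Its host transcript SNHG14 was at 713 CPM with the empty vector and at 1142, 1097 and 848 CPM in the same order. SNORD116-19 has the same 92 bases as SNORD116-17 and was listed at 0, so the counts of SNORD116-17 may hold reads of its copies.

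Members close to the minimum had few counts. SNORD101 and SNORA80A lay just inside it, with mean levels of 0.541 and 0.549 CPM on library totals. SNORD101 was at 0.417 CPM with the empty vector and 0.353, 0.268 and 1.06 CPM in labelled knockdown replicates 1 to 3, and SNORA80A at 0.75 CPM against 0.610, 0.653 and 0.224 CPM. SNORA70G and SNORA80B lay just outside, at 0.486 and 0.475 CPM. Because the minimum was set on the mean of all 4 libraries, 4 members passed although their level with the empty vector was below 0.5 CPM, and 4 passed although their labelled knockdown mean was below it. Over the libraries other than labelled replicate 3, 7 members were under the minimum, and 6 of these were highest in that library. The 7 include SNORD14E, SNORD19C, SNORD12B, SNORD62B, SNORD101 and SNORA72. SNORD12B among them was highest in the empty vector library instead. Counts of members below therefore describe these 59 genes and not all small RNAs.

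**Figure D2:**
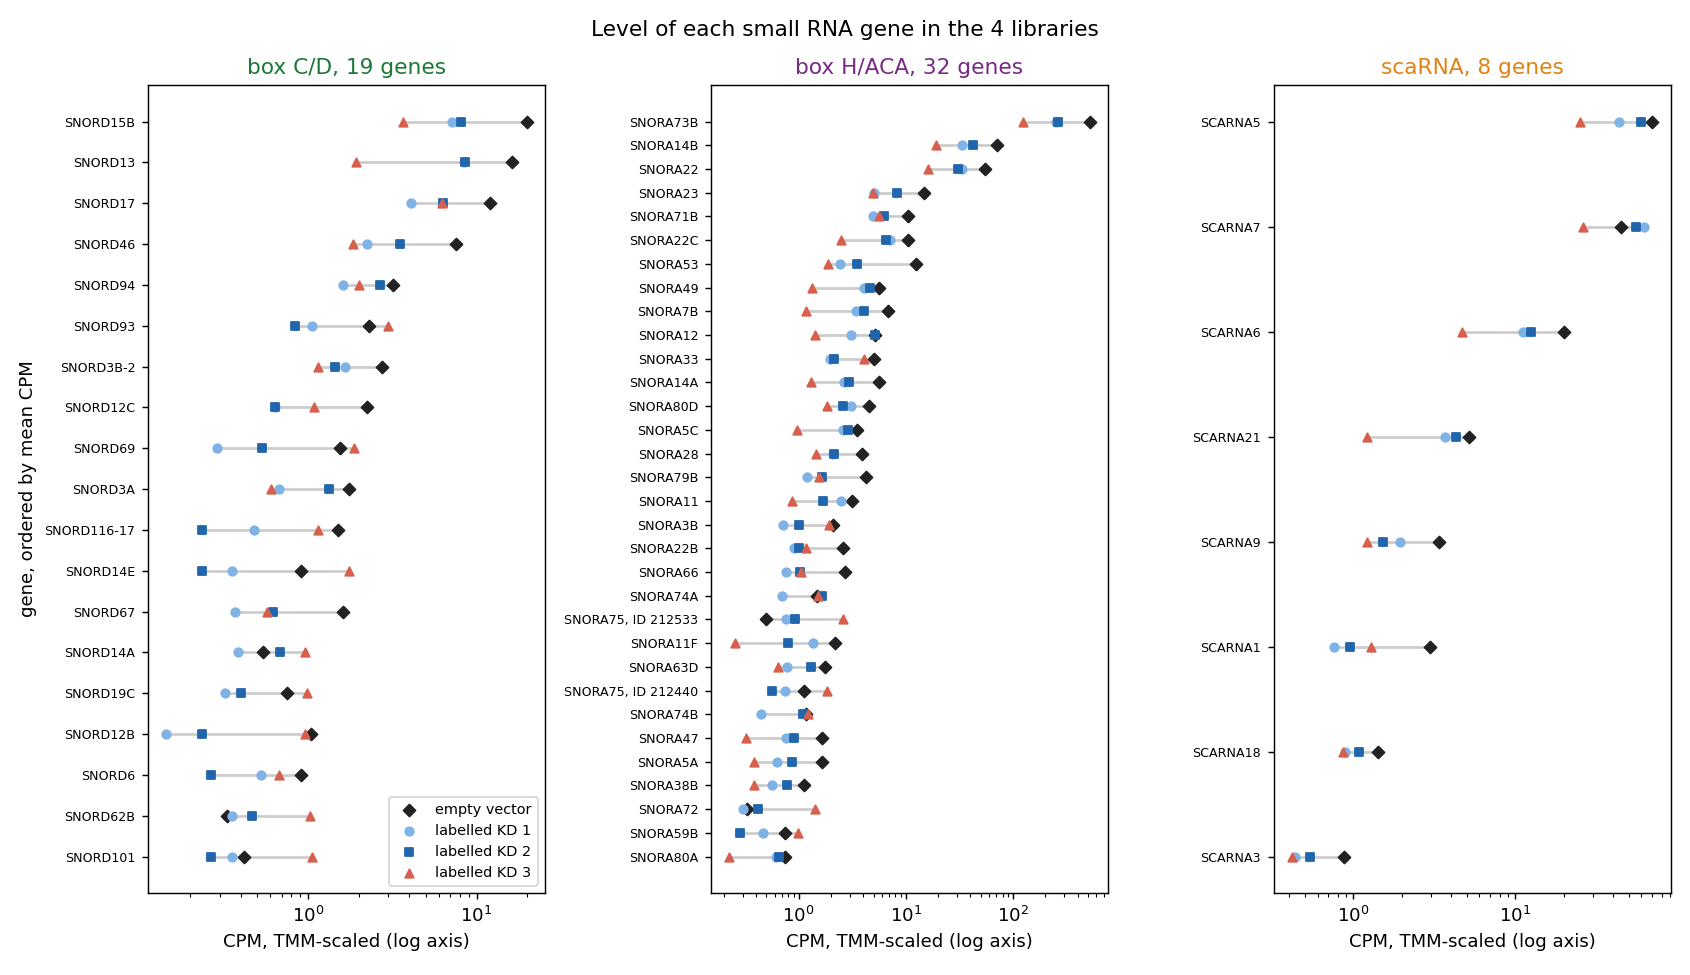
CPM (log axis) of each of the 59 members in each of the 4 libraries, grouped by class and ordered by mean level; black diamonds are the empty vector library and coloured symbols the 3 labelled knockdown libraries. Symbols of the empty vector library lie at the right in 45 of 59 rows.

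Levels were compared between genes only per length, as CPM per 100 nt of the annotated transcript averaged over the 4 libraries. SNORA73B (U17b), which acts in early cleavage of the ribosomal RNA precursor, was highest at 141. SNORA14B followed at 30.5, SNORA22 at 25.0, SCARNA5 at 17.98 and SCARNA7 at 14.3, so the 5 highest comprised H/ACA members and scaRNAs. The highest box C/D members were SNORD13 at 8.44 and SNORD15B at 6.65 CPM per 100 nt. Neighbours in this order were not always separated: SNORA22 and SNORA14B were at 24.8 and 24.5 CPM per 100 nt in the library labelled replicate 1, and SCARNA7 exceeded SCARNA5 there, at 18.8 against 15.9. SNORD3A, a gene of U3 that acts in the cleavages leading to small subunit RNA, was at 0.156 CPM per 100 nt of an annotated transcript of 699 nt.

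Box H/ACA RNAs were lower in the labelled knockdown libraries as a class. Their summed level was 760 CPM with the empty vector and 373, 402 and 205 CPM in labelled knockdown replicates 1, 2 and 3. The empty vector library was thus the highest and the library labelled replicate 3 the lowest. The log2 difference of the summed level was −1.28 ± 0.53 (SD, n = 3 labelled knockdown libraries against 1), with p = 0.25 in a two-sided exact permutation test over the 4 libraries. With 4 libraries this test cannot give a p below 0.25. SNORA73B alone made up between 60.2% and 68.1% of the class, and without it the sums were 242, 123, 141 and 81.7 CPM. The sums of other short genes were lower too: genes with transcripts from 100 to below 150 nt summed to 976, 494, 483 and 264 CPM, and all 213 other genes of 60 to 360 nt at the minimum to 22603, 12812, 17817 and 7992 CPM. Gene by gene the picture was mixed. Of the 40 other genes from 100 to below 150 nt, the empty vector library was highest for 16 and lowest for 12.

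Box C/D RNAs were also highest in the empty vector library, and their 3 labelled knockdown libraries lay close together, with replicate 3 between the others. Their summed level was 77.4 CPM with the empty vector and 31.2, 37.4 and 32.6 CPM in labelled knockdown replicates 1 to 3. The log2 difference was −1.20 ± 0.14 (SD, n = 3 against 1; exact permutation p = 0.25, two-sided).

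The scaRNA sum differed less in labelled knockdown replicates 1 and 2. It was 148.5 CPM with the empty vector and 125, 136 and 60.8 CPM in labelled knockdown replicates 1, 2 and 3, a log2 difference of −0.55 ± 0.64 (SD, n = 3 against 1; exact permutation p = 0.50, two-sided). A single gene, SCARNA7, held between 30.0% and 49.8% of that sum. Without SCARNA7 the sums were 104, 62.7, 80.6 and 34.6 CPM. Whether the classes differed in their response was not tested beyond these values. In bulk RNA, fewer cells holding an RNA and less of it per cell cannot be told apart.

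**Figure D3:**
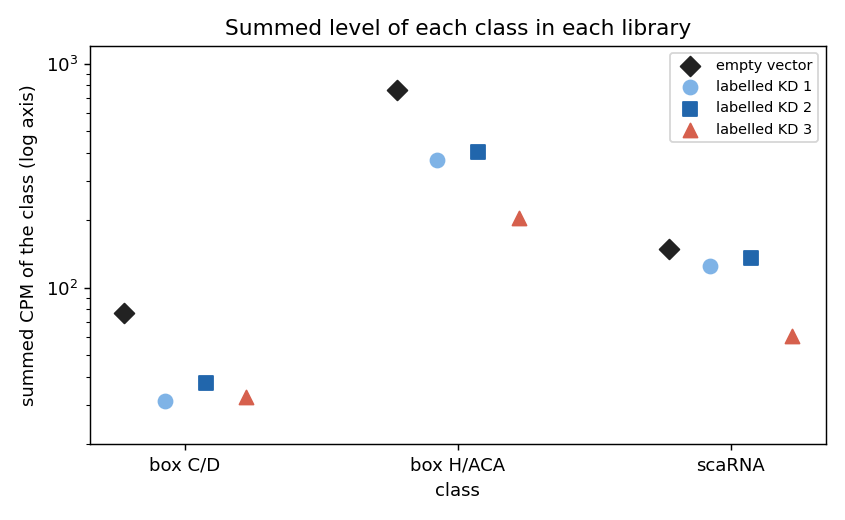
Summed CPM (log axis) of the 19 box C/D, 32 box H/ACA and 8 scaRNA members in each library, 1 symbol per library. The empty vector library is highest in each class, and the library labelled replicate 3 is lowest for box H/ACA and scaRNA only.

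Gene by gene, differences were taken as log2 CPM of a labelled knockdown library minus the empty vector library, after TMM scaling (trimmed mean of M-values, which equalises the bulk of genes between libraries). A member was counted as 2-fold lower or higher when each of the 3 libraries differed by at least 1 and all in 1 direction. By this rule 0 members were higher, where 4.71% of the 18605 genes were, and 9 were lower (15.3% of members), where 2.61% of all genes were. Among 213 other genes with transcripts of 60 to 360 nt at the same minimum, 4.23% were higher and 6.57% lower. Asked of only 2 libraries, the rule counted 17 members lower without replicate 2, against 3.55% of all genes and 9.86% of these other short genes. Without replicate 3 it counted 16 members, against 5.56% and 13.1%. The empty vector library was above each labelled knockdown library for 45 of 59 members (76.3%), against 31.5% of all genes and 35.2% of the other short genes. It was below each for 2 members, SNORD62B and SNORA75 (the copy on chromosome 12 with the higher coordinates), against 31.0% of all genes and 21.1% of the other short genes.

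By class, the empty vector library was highest for 12 of 19 box C/D, 26 of 32 box H/ACA and 7 of 8 scaRNA members. The median log2 difference of box C/D members was −1.27, −1.09 and −0.42 in labelled knockdown replicates 1, 2 and 3. That of box H/ACA members was −1.01, −0.82 and −1.50, and that of scaRNA members −0.74, −0.51 and −1.31. The median over all genes was 0.05, 0.06 and −0.09. That over the other genes of 60 to 360 nt was −0.21, −0.06 and −0.59, and that over the 18 of them of 60 to 99 nt was −0.59, −0.66 and −0.92.

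With 1 empty vector library, a model across all genes takes its spread from the labelled knockdown libraries alone. The quasi-likelihood test of edgeR called 0 of 26029 genes and 0 members at a Benjamini-Hochberg adjusted p of 0.05, while 11.6% of genes and 14 members, all lower, had an unadjusted p under 0.05. DESeq2 called 1.53% of the 16512 genes it gave an adjusted p, and SNORA53 alone among 45 members, and limma's voom called 0 members. Without the library labelled replicate 3, edgeR called genes widely, members among them. That fit sets 2 libraries against 1, so its calls are not read as a result about the members. Counting error was small for many members: 26 had a ratio to the empty vector library whose 95% interval lay below 1 in each of the 3 labelled knockdown libraries, as did 19.2% of all genes and 15% of the other short genes, and 0 members had all 3 above 1. Those intervals cover counting error only.

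**Figure D4:**
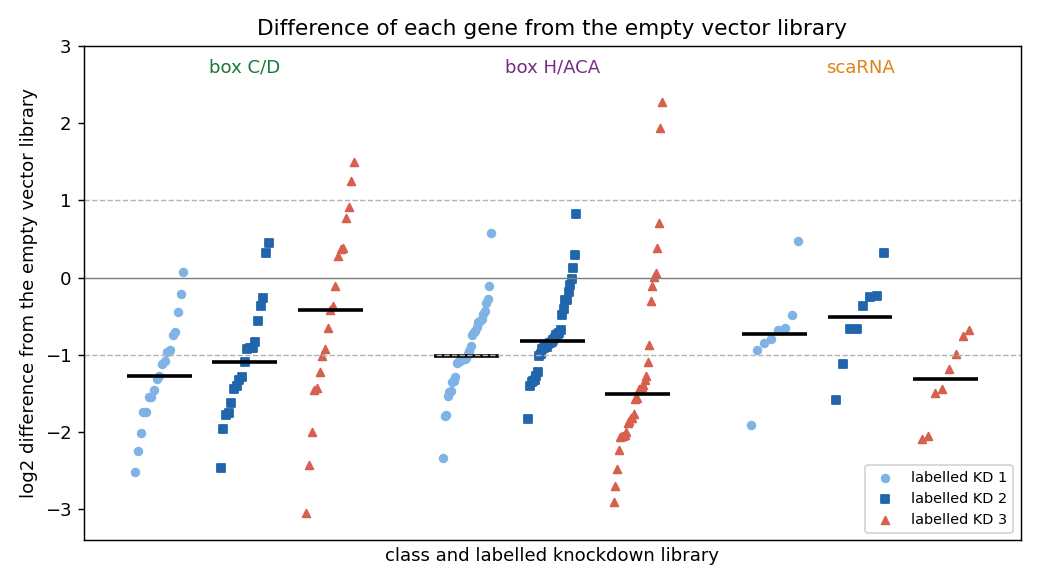
Log2 CPM difference from the empty vector library for each member, by class, in each labelled knockdown library; the line at 0 marks no difference. Medians of all 3 classes lie below 0 in each library, and the box C/D points spread above 0 in the library labelled replicate 3.

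The members that were 2-fold lower in each library comprised 4 box C/D, 4 box H/ACA and 1 scaRNA gene. SNORA53, an H/ACA RNA in the SLC25A3 gene, was at 12.5 CPM with the empty vector and at 2.44, 3.50 and 1.89 CPM in labelled knockdown replicates 1, 2 and 3. Its log2 difference was −2.29 ± 0.44 (SD, n = 3), the lowest of all members. SNORA53 lies partly over an exon of another gene, and the whole SLC25A3 gene was at 899 CPM with the empty vector and at 491, 519 and 414 CPM in the others.

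SNORD15B, a guide of methylation in large subunit RNA, had the highest CPM of the box C/D members, though not per length. It was at 19.9 CPM with the empty vector and at 7.20, 8.14 and 3.65 CPM in labelled knockdown replicates 1 to 3, a log2 difference of −1.72 ± 0.62 (SD, n = 3). All 3 labelled knockdown libraries were below the empty vector library by more than counting error, with ratios of 0.362 (95% interval 0.301 to 0.437), 0.410 (0.342 to 0.493) and 0.184 (0.135 to 0.247). Its host RPS3, a protein of the small ribosomal subunit, was at 1402 CPM with the empty vector and at 699, 780 and 533 CPM, a mean log2 difference of −1.08.

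SNORD46 was at 7.58 CPM with the empty vector and at 2.23, 3.54 and 1.86 CPM in the labelled knockdown libraries. SNORD67, a guide directed to the U6 small nuclear RNA, was at 1.63 CPM against 0.369, 0.620 and 0.576 CPM. Its host CKAP5, a microtubule protein gene, went the other way, at 376 CPM with the empty vector against 590, 568 and 512 CPM. SNORD12C, in the non-coding host ZFAS1, was at 2.25 CPM with the empty vector and 0.642, 0.637 and 1.09 CPM in the others. That every labelled knockdown library lay below the empty vector library in these members follows from the rule that selected them.

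Among the H/ACA members of this group, SNORA79B was at 4.25 CPM with the empty vector and at 1.19, 1.64 and 1.54 CPM in labelled knockdown replicates 1 to 3. SNORA66, in RPL5, was at 2.71 CPM against 0.755, 1.04 and 1.06 CPM. SNORA22B, in the chaperonin gene CCT6A, was at 2.58 CPM against 0.899, 1.01 and 1.18 CPM. The scaRNA of the group, SCARNA1, was at 2.96 CPM with the empty vector and at 0.755, 0.955 and 1.28 CPM. SNORA66, SNORA22B and SCARNA1 were higher in the library labelled replicate 3 than in replicates 1 and 2, SNORA66 by little against replicate 2.

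The most abundant members did not pass the rule in every library. SNORA73B was at 518 CPM with the empty vector and at 250, 261 and 123 CPM in labelled knockdown replicates 1, 2 and 3. The log2 differences were −1.05, −0.99 and −2.07, so that replicate 2 was just short of 2-fold. SNORA14B was at 70.1 CPM against 33.1, 42.5 and 18.9 CPM, and SNORA22 at 54.2 CPM against 33.2, 30.8 and 15.9 CPM. In all 3 genes the empty vector library was highest and the library labelled replicate 3 lowest.

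SNORA23 and SNORA71B followed in CPM, not per length, among the H/ACA members. SNORA23, in the importin gene IPO7, was at 14.7 CPM with the empty vector and 5.04, 8.28 and 4.93 CPM in labelled knockdown replicates 1, 2 and 3. SNORA71B, in SNHG17, was at 10.4 CPM against 4.98, 6.23 and 5.63 CPM. SNORA49 and SNORA12 had wide gaps downward in replicate 3, at 5.67 CPM with the empty vector against 4.06, 4.62 and 1.34 CPM, and at 5.21 CPM against 3.08, 5.16 and 1.41 CPM. SNORA12 in replicate 2 was thus near its level with the empty vector.

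Of the other abundant box C/D members, SNORD17, in the sorting nexin gene SNX5, was at 11.998 CPM with the empty vector and 4.06, 6.30 and 6.27 CPM in the labelled knockdown libraries. SNORD94, a guide directed to U6, was at 3.21 CPM against 1.62, 2.66 and 2.02 CPM. For both, every labelled knockdown library was below the empty vector library, though SNORD94 in replicate 2 was close to it.

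SNORD13 (U13, which assists maturation of small subunit RNA and has its own promoter) was at 16.2 CPM with the empty vector. It was at 8.45 and 8.56 CPM in labelled knockdown replicates 1 and 2 and at 1.92 CPM in replicate 3. Its level in replicate 3 was 0.226 times that in replicates 1 and 2 together (95% counting interval 0.151 to 0.327), the widest gap downward of any member with 20 or more counts in every library. SNORD3A (U3) was at 1.75 CPM with the empty vector against 0.675, 1.34 and 0.608 CPM, and SNORD3B-2, another U3 gene, at 2.75 CPM against 1.67, 1.44 and 1.15 CPM.

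The remaining abundant scaRNAs diverged. SCARNA5 was at 70.2 CPM with the empty vector and at 43.8, 59.6 and 24.9 CPM in labelled knockdown replicates 1, 2 and 3, and SCARNA6 at 19.997 CPM against 11.1, 12.5 and 4.67 CPM. Both lie in introns of ATG16L1, an autophagy gene, which hardly varied, at 46.4, 46.2, 45.6 and 48.3 CPM. SCARNA7 was instead higher in labelled knockdown replicates 1 and 2, at 44.6 CPM with the empty vector and 62.1, 55.8 and 26.3 CPM in replicates 1, 2 and 3. Relative to the empty vector library it was at ratios of 1.39 (95% counting interval 1.27 to 1.54), 1.25 (1.14 to 1.38) and 0.589 (0.516 to 0.671). Its host KPNA4, an importin gene, had the same order of libraries, at 364 CPM against 491, 500 and 332 CPM, apart from the rank of replicates 1 and 2.

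SCARNA21 was at 5.17 CPM with the empty vector and 3.69, 4.32 and 1.22 CPM in labelled knockdown replicates 1 to 3. SCARNA9, which yields guides for the U2 small nuclear RNA, was at 3.37 CPM against 1.93, 1.53 and 1.22 CPM. SCARNA18 and SCARNA3 were near the minimum, at 1.42 and 0.875 CPM with the empty vector and between 0.864 and 1.09 and between 0.416 and 0.536 CPM in the others. In all 4 the empty vector library was highest.

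In the library labelled replicate 3, short and longer box C/D members differed. The bands used here, under 100 nt, from 100 to below 150 nt, and 150 nt or more, were chosen after the values were seen. The 11 members under 100 nt, all box C/D, summed to 12.5 CPM with the empty vector, 4.91 and 4.81 CPM in labelled knockdown replicates 1 and 2, and 14.5 CPM in replicate 3. Replicate 3 was the highest library for 7 of these 11 and the lowest for 0, but 5 of the 11, 4 of them highest in replicate 3, were under the minimum over the other 3 libraries. The 6 that reached it there, a check added after the values were seen, summed to 9.04, 3.39, 3.20 and 8.74 CPM, with replicate 3 highest for 3. Only 2 of the 11 had 20 counts in every library. The 31 members of the middle band summed to 255, 132, 148 and 73.6 CPM in the same order, with replicate 3 lowest for 23. The 17 longer members summed to 718, 392, 423 and 210 CPM, with replicate 3 lowest for 9. Over all members replicate 3 was lowest for 32 of 59 (54.2%), where it was for 40.2% of all genes and 46% of the other short genes.

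As all 11 members under 100 nt were box C/D, a comparison within this class restates that split and adds no separate check. The 8 box C/D members of 100 nt or more summed to 64.9 CPM with the empty vector and to 26.3, 32.6 and 18.1 CPM in labelled knockdown replicates 1, 2 and 3. Replicate 3 was at 0.613 times the mean of replicates 1 and 2 for these, and at 2.99 times that mean for the 11 shorter members. Across all 59 members, Spearman's rho between transcript length and the log2 gap of replicate 3 to the mean of replicates 1 and 2 was −0.33, and it was −0.56 between mean CPM and that gap. By class the rho with length was −0.70 for the 19 box C/D members and 0.19 for the 32 box H/ACA members, so box H/ACA members did not share its direction. The 9 box H/ACA members of 150 nt or more had a median gap of 0.46, with replicate 3 highest for 4. Of these 4, 1 passed the minimum only through replicate 3. The rho values over all members and over box C/D include the 5 short members that passed only through replicate 3. Those over all members and over box H/ACA include SNORA72 and that 1 longer member, which passed in the same way. Members share the 4 libraries and their depth, so these values are descriptions only.

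**Figure D5:**
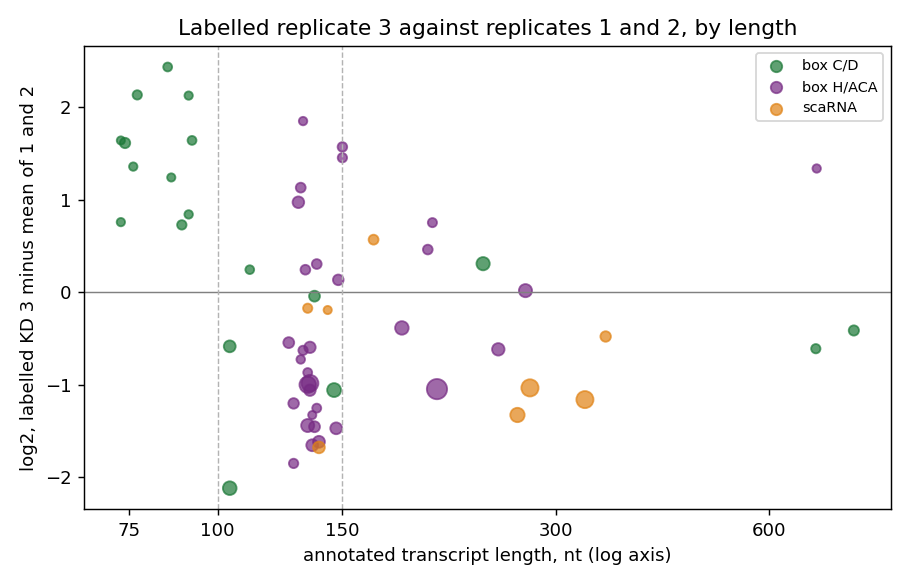
Log2 gap of labelled replicate 3 to the mean of labelled replicates 1 and 2 for each of the 59 members, against transcript length (nt, log axis), coloured by class, with a larger point for a higher mean CPM. All 11 members under 100 nt lie above 0, and most members from 100 to below 150 nt lie below. Of the 11, 5 passed the minimum only through replicate 3.

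The share of members that differed in replicate 3 was set against other genes. Replicate 3 was at least 2-fold above both replicates 1 and 2 for 12 members (20.3%), against 9.20% of all genes and 20.2% of the 213 other short genes. It was at least 2-fold below both for 13 members (22.03%), against 13.6% and 27.7%. By length, replicate 3 was 2-fold above both for 8 of the 11 members under 100 nt (72.7%) and for 2 of 18 other genes of 60 to 99 nt (11.1%). The former share is raised by the choice of members, as 5 of the 11 were under the minimum without replicate 3. Among the 6 that reached the minimum over the other 3 libraries, replicate 3 was 2-fold above both for 3. The counts of annotated short genes inside introns were also higher in this library: 2345 other short genes that lie inside an intron and fell under the minimum summed to 47.3, 43.2, 42.4 and 123 CPM, 2.88 times higher in replicate 3 than in the mean of replicates 1 and 2. The 494 snoRNA and scaRNA genes under the minimum summed to 19.1, 10.3, 10.6 and 21.1 CPM. The set of intronic genes was chosen after the values were seen, and its part in the level of the short members was not tested.

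SNORD14E, a copy of U14 in the gene of the heat shock protein HSPA8, had the widest gap upward. It was under the minimum over the libraries other than replicate 3, so its place among the members rests on replicate 3. It was at 0.917 CPM with the empty vector, at 0.353 and 0.235 CPM in labelled knockdown replicates 1 and 2 and at 1.76 CPM in replicate 3. HSPA8 had the same order, at 1750 CPM with the empty vector, 376 and 376 CPM in replicates 1 and 2 and 2907 CPM in replicate 3. SNORD93 was at 2.29 CPM with the empty vector against 1.06, 0.838 and 2.98 CPM, and its host SNHG26 at 26.6 CPM against 15.1, 17.5 and 34.3 CPM. Both pairs were highest in replicate 3 and lowest in replicates 1 and 2.

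SNORD69 did not follow its host. It was at 1.54 CPM with the empty vector, 0.289 and 0.536 CPM in labelled knockdown replicates 1 and 2 and 1.89 CPM in replicate 3. Its host GNL3, which encodes nucleostemin, was lowest in replicate 3, at 369, 289, 309 and 184 CPM. SNORD19C, in another intron of GNL3, was at 0.75, 0.321, 0.402 and 0.992 CPM and so also stood highest in replicate 3. SNORD12B, in ZFAS1, was at 1.04 CPM with the empty vector against 0.145, 0.235 and 0.960 CPM. Both SNORD19C and SNORD12B were under the minimum over the libraries other than replicate 3.

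A few H/ACA members also stood high in replicate 3. SNORA75 has a pair of member copies on chromosome 12 that agree in 148 of 150 bases, so their counts may exchange reads. One copy (chr12:31076867-31077016, minus strand) was at 0.50 CPM with the empty vector and 0.771, 0.921 and 2.59 CPM in labelled knockdown replicates 1, 2 and 3. The other (chr12:9286673-9286822, minus strand) was at 1.13, 0.739, 0.570 and 1.86 CPM in the same order of libraries. SNORA72 was at 0.333 CPM with the empty vector and 0.305, 0.419 and 1.41 CPM. All 3 genes were highest in replicate 3, from few counts, and SNORA72 was under the minimum over the libraries other than replicate 3.

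Near-identical relatives limit single-gene readings for 16 members, which have at least 1 relative of the same family with 90% or more identical bases. SNORA22 and SNORA22C agree in 132 of 134 bases. SNORA22C was at 10.5 CPM with the empty vector and 7.20, 6.55 and 2.50 CPM in labelled knockdown replicates 1 to 3, the same order of empty vector and replicate 3 as SNORA22. SNORA7B shares 137 of 139 bases with SNORA7A and was at 6.83 CPM against 3.42, 4.07 and 1.18 CPM, while SNORA7A, inside an exon, was listed at 0. SNORD62B has the same 86 bases as SNORD62A and was at 0.333, 0.353, 0.469 and 1.02 CPM.

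Host genes differed less from the empty vector library than the members they hold. Of the 59 members, 48 lie within a gene on the same strand with a mean level of at least 0.5 CPM, in 43 different hosts, 37 of them protein coding. By the 2-fold rule 0 of the 43 hosts were lower and 1, ZBED3 (host of SNORA47), was higher. Over all genes the shares were 2.61% and 4.71%, so these counts do not set the hosts apart. The empty vector library was highest for 25 of the 43 hosts (58.1%, against 31.5% of all genes), and the median host log2 difference was −0.31, −0.22 and −0.43 in labelled knockdown replicates 1, 2 and 3. A member's log2 difference was below that of its host for 40, 39 and 35 of the 48 in the 3 libraries, and in every one of them for 28. The median of member minus host was −0.80, −0.56 and −0.70.

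SNORA73B and its host did not run in parallel. SNHG3, the non-coding gene around it, was at 272 CPM with the empty vector and 78.0, 90.3 and 168 CPM in labelled knockdown replicates 1, 2 and 3. SNORA73B was lowest in replicate 3, and SNHG3 was lowest in replicate 1. RCC1, whose span also holds it, was at 216.1 CPM against 116, 120 and 128 CPM.

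The protein genes of the particles were mostly highest with the empty vector. Of 32 genes for core, assembly and Cajal body proteins, the empty vector library was highest for 22 (68.8%, against 31.5% of all genes). By the 2-fold rule 0 were higher and 0 were lower, where 4.71% and 2.61% of all genes were. In a list of 32 these shares come to few genes, so the 0 does not set the list apart. All 4 H/ACA core proteins were highest with the empty vector. NHP2, which binds the H/ACA hairpin, was at 26.0 CPM with the empty vector and 12.7, 13.4 and 12.2 CPM in the others. DKC1, the pseudouridine synthase dyskerin, was at 127 CPM against 114, 121 and 87.2 CPM. GAR1 was at 21.8 CPM against 13.4, 15.1 and 13.4 CPM, and NOP10 at 211 CPM against 130, 147 and 102 CPM.

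Of the 4 box C/D core proteins, 3 were highest with the empty vector. FBL, the methyltransferase fibrillarin, was at 233 CPM with the empty vector and 170, 194 and 114 CPM in labelled knockdown replicates 1 to 3. NOP56 was at 262 CPM against 161, 173 and 196 CPM, and SNU13, which binds the C/D kink-turn, at 220 CPM against 139, 152 and 103 CPM. NOP58 was the exception, at 171 CPM against 252, 267 and 114 CPM.

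Among the 19 assembly and processing genes, the empty vector library was highest for 13 and lowest for 2. RUVBL2, a helicase of the assembly complex, was at 121 CPM with the empty vector and 75.2, 86.9 and 48.3 CPM in the labelled knockdown libraries. ZNHIT6, a box C/D assembly factor, went the other way, at 39.95 CPM against 70.8, 68.8 and 49.8 CPM. Of 5 Cajal body genes, COIL (coilin, the scaffold of the body) was at 56.6 CPM against 23.9, 24.0 and 33.4 CPM, and WRAP53, which brings scaRNAs to the body, at 23.6 CPM against 14.9, 13.4 and 16.4 CPM. SART3 and USPL1 were highest in replicate 3.

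The 16 members not given singly were 2 box C/D and 14 box H/ACA genes. For 12 of them the empty vector library was highest, and for 9 the library labelled replicate 3 was lowest. Their level ran from 0.542 to 5.58 CPM with the empty vector and from 0.385 to 3.07, 0.268 to 2.93 and 0.256 to 4.10 CPM in labelled knockdown replicates 1, 2 and 3. Their mean log2 difference ran from −1.67 to 0.22.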

How the data were processed

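RNA-seq of 4 libraries was analysed. Per the labels' protocols, ribosomal RNA was depleted from total RNA and libraries were strand-specific. The authors deposited raw counts per gene, 1 table per library; the submitters' processing notes name STAR 2.7.11b, featureCounts 2.0.6, DESeq2 and GRCh38, and the strand and overlap settings are not given in the sources used here. Per the file headers, the count columns carry other names (a LacZ control and GKAP_KIF27 sets) than the sample labels, so groups were taken from the sample titles. Between 59.3% and 64.4% of members' counts were even (54.6% to 60.2% over genes at the same minimum, 65.2% to 68.0% over all genes with a count), so 95% counting intervals (exact Poisson for a level, exact binomial for a ratio) were computed on counts divided by 2. They cover counting error only, as does the floor of 3 counts.

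Counts were scaled in edgeR 4.0.16 (R 4.3.3) by TMM factors of 0.953, 0.990, 0.969 and 1.094 for the empty vector library and labelled knockdown replicates 1, 2 and 3, and log2 CPM used a prior count of 2. The 2-fold rule and the permutation test are defined in the report. The rule was checked on simulated data. Counts were also fitted with edgeR's quasi-likelihood test, limma 3.58.1 and DESeq2 1.42.0, and no p-value of a single gene is given. Genes were matched to GENCODE 29 without identifier versions: all 59 members and 552 of 553 symbols matched.

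The members and gene lists were chosen with earlier results of these data known. Genes are named by rule: the 5 most abundant per class, by CPM and per length; those past the 2-fold rule, up to 6 in each direction; those next to the minimum; the 3 widest gaps of replicate 3 per class; fixed special members, hosts and protein lists. The other members named were chosen after their values were seen. Some sequences and genes are not reported here.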

Additional observations from a re-analysis of the deposited data

How the results depend on the processing

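No result reversed under the alternatives tried. The 3 medians and the 3 summed levels kept their direction under other scalings, minimum levels, left-out libraries and members clear of other exons (and the medians under other prior counts). They also stayed within the spread (SD) between libraries of the main setting, except for box C/D at a mean CPM of at least 5. There the median log2 difference was −1.63, against −1.05, and that of the summed level −1.46, against −1.20 ± 0.14. The summed scaRNA log2 difference ranged from −0.90 to −0.19 over its alternatives, the former without SCARNA7 and the latter without replicate 3. The count of 9 members lower by the 2-fold rule was 26 at 1.5-fold and 29 by the mean over the labelled knockdown libraries. It was 14 of 80 members at a minimum of 0.25 CPM and 1 of 12 at 5 CPM. With 1 labelled knockdown library left out, where the rule asks for fewer libraries, it was between 11 and 17 (17 without replicate 2, 16 without replicate 3). The count of members higher was 1 by the mean and 0 otherwise. Of these alternatives, the share of all genes was taken only without replicate 2 (3.55% lower) and without replicate 3 (5.56% lower). The other counts therefore show how the rule behaves and are not read as a result about the members. Calls by edgeR among members were 0, against 1 by DESeq2, and between 0 and 37 when 1 library was left out; the 37 came without the library labelled replicate 3. In that fit edgeR called genes widely, not members alone, and 2 libraries were set against 1. The 37 is therefore not read as a result about the members. The number of members below the empty vector library in all 3 others was 45 by TMM and between 42 and 45 by the other scalings. No paired analysis was possible because only 1 library carries the empty vector, and its label has no number to pair on. Depth limits the members near the minimum, such as SNORA75 with 12 counts in the empty vector library.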
